A study of Mus musculus with 26 samples.

Results

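Dividing microglia of the postnatal mouse cortex were picked from 6 sorted single-cell libraries taken at P14. A barcode (the droplet label that stands for a cell) was kept with at least 500 genes and at most 20% of its UMIs (unique molecular identifiers, counted molecules) on mitochondrial genes. It was a microglial cell with at least 2 UMIs of Csf1r and C1qa together, and a dividing one when Top2a, Mki67, Cenpf, Cenpe, Ube2c and Birc5 summed to at least 4 UMIs. By this rule 347 of 29554 P14 microglia were dividing, out of 109847 barcodes past the filter in all 26 libraries of the series. The 28405 microglia with 0 UMIs of the 6 rule genes are called non-dividing here.

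All mice were wild-type C57Bl/6N, and each library was made from somatosensory (S1) cortex sorted with antibodies to Cd11b, Cx3cr1 and Cd45. Pregnant dams had received an intraperitoneal injection at E12.5 of saline or of poly(I:C), a double-stranded RNA mimic that induces maternal immune activation (MIA). At P14 there were 4 saline libraries (replicates 1 and 2 of mixed sex, 3F female and 3M male) and 2 MIA libraries (replicates 1 and 2, mixed sex). The study counts as many P14 mice as libraries, whereas the labels call most of these libraries mixed in sex, and the conflict was not settled. The labels name 3F and 3M as the female and male libraries of 1 replicate. A library, not a cell, was taken as the replicate. Sorted E13 and E15 libraries, 3 after saline and 3 after MIA at each age, served for comparison. The P14 libraries held between 22187944 and 32527293 UMIs past the filter.

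Microglia are the resident macrophages of the brain. They arise from yolk sac precursors, enter the brain before birth, and then expand by local division, which depends on signals through Csf1r, the receptor for colony-stimulating factor 1. A cell that divides first copies its DNA and makes histones to package it (S phase), then builds a spindle and splits (G2 and mitosis). Mki67 codes for the Ki-67 protein that coats mitotic chromosomes, Top2a for topoisomerase II alpha, which untangles copied DNA, and Birc5 for survivin of the chromosomal passenger complex. Cenpf and Cenpe act at the kinetochore, and Ube2c is a ubiquitin-conjugating enzyme that works with the anaphase-promoting complex.

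The promoters of the rule genes are shown because these genes, as a set, chose the dividing cells. Each line is the 150 bases just upstream of the annotated start, 5′ to 3′ on the gene's own strand, from RefSeq on GRCm38.p6. Capitals mark CCAAT (or ATTGG on the other strand), the box bound by NF-Y, and the letters TTTGAA (on the other strand TTCAAA) or the palindrome TTCGAA of the cell cycle homology region (CHR) bound by the DREAM and MuvB complexes.
Top2a, chr11:99024190-99024339, minus strand: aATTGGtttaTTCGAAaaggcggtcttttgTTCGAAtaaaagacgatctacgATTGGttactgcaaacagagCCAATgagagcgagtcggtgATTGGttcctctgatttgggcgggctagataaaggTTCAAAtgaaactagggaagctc
Mki67, chr7:135716380-135716529, minus strand: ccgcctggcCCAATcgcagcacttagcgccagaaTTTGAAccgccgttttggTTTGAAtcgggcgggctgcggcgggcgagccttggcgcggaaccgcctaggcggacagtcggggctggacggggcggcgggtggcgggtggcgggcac
Cenpf, chr1:189688087-189688236, minus strand: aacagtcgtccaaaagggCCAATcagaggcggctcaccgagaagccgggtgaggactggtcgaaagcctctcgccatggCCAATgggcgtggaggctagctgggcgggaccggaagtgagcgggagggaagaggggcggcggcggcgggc
Cenpe, chr3:135212413-135212562, plus strand: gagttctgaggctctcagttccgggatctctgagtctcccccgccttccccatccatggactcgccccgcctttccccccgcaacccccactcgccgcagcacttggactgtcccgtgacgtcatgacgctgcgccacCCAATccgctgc
Ube2c, chr2:164769779-164769928, plus strand: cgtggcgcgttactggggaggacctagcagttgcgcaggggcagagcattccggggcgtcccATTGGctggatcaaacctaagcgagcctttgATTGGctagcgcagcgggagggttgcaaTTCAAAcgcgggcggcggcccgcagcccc
Birc5, chr11:117849087-117849236, plus strand: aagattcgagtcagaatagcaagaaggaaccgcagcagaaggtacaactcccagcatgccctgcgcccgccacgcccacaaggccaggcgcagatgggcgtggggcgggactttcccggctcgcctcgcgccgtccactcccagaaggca

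Top2a carries 4 CCAAT boxes and 3 CHR matches in this window, Mki67 carries 1 and 2, and Ube2c carries 2 and 1. Cenpf and Cenpe carry CCAAT boxes without a CHR match, and these letters are not in the Birc5 window. Over a window of 250 bases upstream, searched on both strands, CCAAT was found in 5 of 6 rule genes, in 30 of the 40 G2 and mitosis genes with a promoter entry (47 listed), and in 34.5% of 27025 promoters. A CHR match was found in 3 of 6 rule genes, 17 of those 40 genes and 17.4% of all promoters. Both motifs together were present in 3 of 6, 15 of 40 and 6.21%. A match describes letters only.

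A fact about the barcodes comes before the results. Of the 347 dividing cells, 249 (71.8%) carried a barcode that was also in the barcode list of another sorted library, against 749 of 28405 non-dividing cells (2.64%), and chance overlap of barcodes would give 3.38 such dividing cells. The shared barcodes numbered 17 of 36 in saline 1, 2 of 12 in saline 2, 101 of 123 in saline 3F, 95 of 120 in saline 3M, 28 of 45 in MIA 1 and 6 of 11 in MIA 2. For all 249, another library held more UMIs under the same barcode, and for 247 that library was an E13 one. It was E13 MIA replicate 2 for 100 of 101 in saline 3F and 94 of 95 in saline 3M, and E13 MIA replicate 1 for 17 of 17 in saline 1 and 26 of 28 in MIA 1. The 249 cells came from 146 distinct barcodes, and 206 were dividing cells in more than 1 P14 library.

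The UMIs of the shared dividing cells, as percent of those of the largest copy under the same barcode, ran from 17.3 to 38.3% in saline 3F (median 31.3%), 14.6 to 32.1% in saline 3M (27.0%) and 1.18 to 4.54% in MIA 1 (4.26%). They ran from 2.57 to 2.91% in saline 1, 0.652 to 0.731% in saline 2 and 0.892 to 0.976% in MIA 2. Their gene profile correlated with that of the copy at a median of 0.857 (n = 249 cells, a description across genes). With the largest copy of the next shared dividing cell of the same P14 library, the median was 0.653. Likeness to other P14 cells was not measured. Cst3, which codes for the secreted protease inhibitor cystatin C and is among the most abundant microglial messages after birth, made up a median of 0.438% of UMIs in shared dividing cells (0 to 1.67%). In the unshared ones it made up 3.42% (1.05 to 8.42%), and in unshared non-dividing cells 5.23%. Only 7 shared cells reached the lowest unshared value. Apoe, a lipid carrier, went the other way, at 0.579% of UMIs in shared and 0.0935% in unshared dividing cells.

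**Figure D1:**
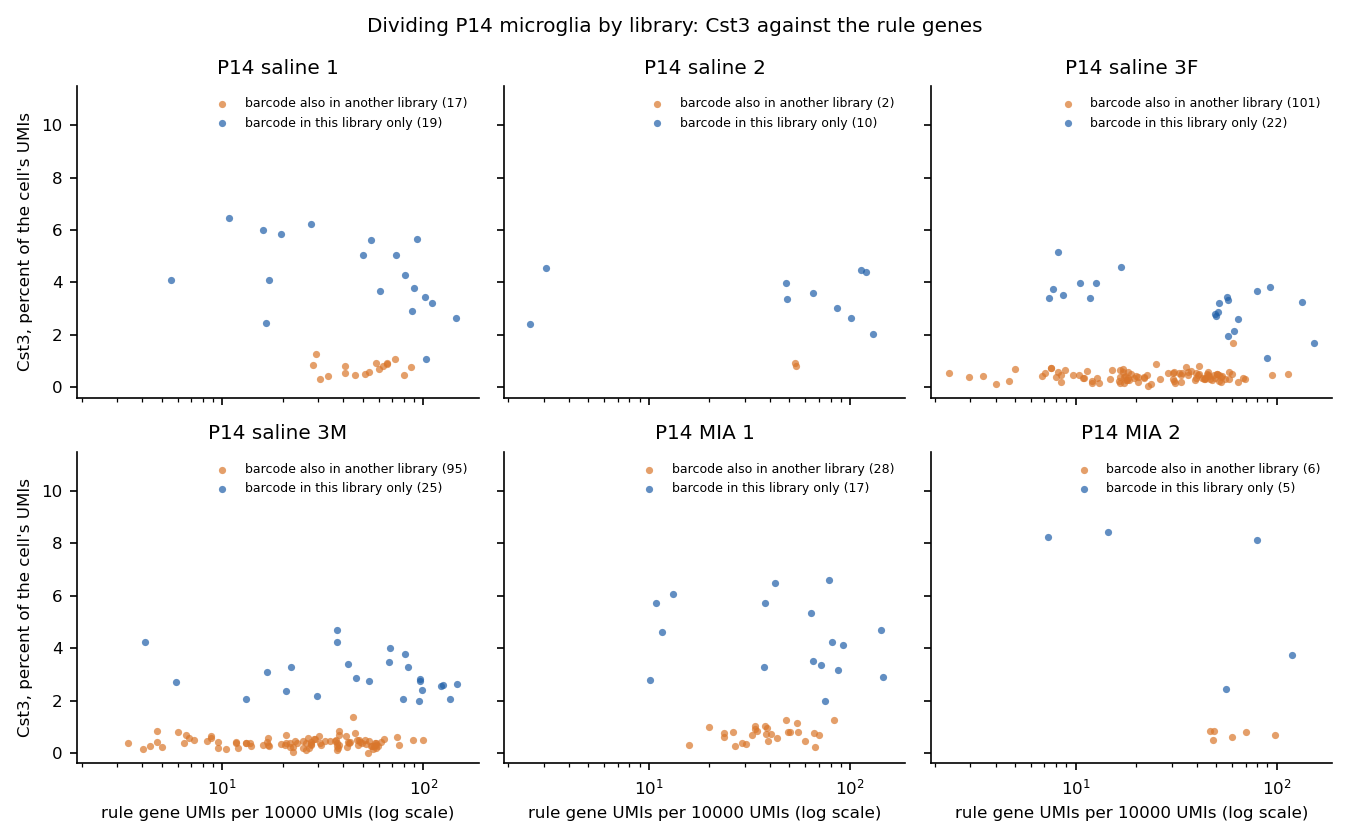
Every dividing P14 microglial cell, by library. The x axis gives UMIs of the 6 rule genes per 10000 UMIs on a log scale, the y axis Cst3 as percent of the cell's UMIs, and colour whether the barcode is also listed in another sorted library; shared barcodes lie at or below 1.67% and unshared ones between 1.05 and 8.42%.

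Xist, the RNA of the inactive X chromosome, gave a reading by sex. In the male library saline 3M, 40 of 95 shared dividing cells held an Xist UMI, against 0 of 25 unshared ones (a count of 0 allows a share of up to 12%) and 0.462% of non-dividing cells. In the female library saline 3F it was found in 42 of 101 shared and 22 of 22 unshared dividing cells, and in 94.8% of non-dividing cells. The shared barcodes therefore went against the sex on the label in 1 library and against the other cells in both. Results below are given for all 347 dividing cells, for the 98 whose barcode was in no other sorted library, called unshared, or for both. Gene levels and gene lists set beside non-dividing cells are for unshared cells unless all cells are named.

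The unshared dividing cells numbered 19, 10, 22 and 25 in saline 1, 2, 3F and 3M and 17 and 5 in MIA 1 and 2. They held a median of 8067 UMIs (2500 to 33731) and 2968 genes, against 5275 UMIs and 2185 genes in non-dividing cells, and a median of 47 rule-gene UMIs. Shared dividing cells held a median of 4848 UMIs, 1923 genes and 10 rule-gene UMIs. At the threshold, 34 cells had exactly 4 rule-gene UMIs (6 of them unshared) and 72 just missed it with 3 (24 unshared), and the median over unshared cells of G2 and mitosis UMIs, rule genes left out, was 7.5 and 5.5.

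All 6 rule genes were found in every library's unshared dividing cells. These values chose the cells and are given as a description, in CPM (UMIs of a gene per 1000000 UMIs, both summed over the dividing cells of a library). Mki67 stood at 1209, 1366, 1366 and 1882 CPM in saline 1, 2, 3F and 3M and at 1399 and 1500 CPM in MIA 1 and 2. Top2a stood at 2091, 1711, 1829 and 1809 CPM after saline and at 2232 and 1225 CPM after MIA. Cenpf read 848 to 1389 CPM, Ube2c 674 to 1282 CPM and Birc5 397 to 668 CPM over the 6 libraries. Cenpe read 349 to 479 CPM after saline and 627 and 550 CPM after MIA, the last from 22 UMIs. The groups overlapped for the other 5 genes, and how many of all genes separate like Cenpe was not counted. Mki67 had a UMI in 23 of 25 unshared cells of saline 3M and in 3 of 5 of MIA 2.

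Genes of mitosis outside the rule were also higher in the dividing cells. The rule made this contrast, so the following is a description without a test, in log2 ratios of CPM (1 CPM added), dividing over non-dividing cells of the same library. Among genes with at least 10 UMIs over the dividing cells, 43 of 47 of the G2 and mitosis list were higher in 6 of 6 libraries in the unshared cells, and 0 were lower. The median log2 ratio was 6.07. Over all 7931 genes so measured, 11.3% were higher and 11.0% lower in 6 of 6 libraries, with a median log2 ratio of -0.05. With all 347 cells it was 44 of 47 with a median of 5.51, against 11.3% higher and 16.1% lower of 9836 genes.

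The genes with the highest ratios in the unshared cells included Hist1h1b, which codes for a linker histone, at 10.27 (9.49 to 10.84 over 6 libraries). In CPM it read 2880, 1854, 2244 and 1445 after saline and 2432 and 2400 after MIA, against 0.573 to 1.02 in non-dividing cells. Nusap1, a spindle microtubule protein, followed at 9.25, and its 6 libraries read 583 to 1158 CPM against at most 0.226 CPM. Prc1, which bundles the midzone of the spindle, had a ratio of 9.0, and Hmmr, a spindle assembly protein, 8.56. The kinesins Kif11 and Kif23, motors of spindle poles and of cytokinesis, stood at 7.95 and 7.94. Ccnb2 and Ccna2, cyclins of mitosis and of S to G2, stood at 8.25 and 7.69, and the mitotic kinase Plk1 at 7.62. The other genes named by the same rule were Pbk, Tpx2, Aspm, Cdca3, Hist1h3c, Cdca8, Knl1, Esco2, Pclaf, Spc24 and Lockd, at 7.43 to 8.81.

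By role, 21 of 24 kinetochore and spindle checkpoint genes were higher in 6 of 6 libraries, and their summed level was 3575 to 5119 CPM against 145 to 164 CPM in non-dividing cells. Condensin and cohesin genes, which compact and hold chromatids, were higher for 13 of 17 (3275 to 4012 against 705 to 775 CPM). Of 67 replication-dependent histone genes, 42 reached 10 UMIs and 32 of those were higher in all 6, with sums of 5860 to 15571 against 324 to 478 CPM. The DNA replication and S phase list stood lower than the mitotic lists in this contrast, with 17 of the 41 genes measured higher in 6 of 6 and a median log2 ratio of 2.46. Its sums were 1800 to 5492 CPM against 607 to 671 CPM. Of cyclins, CDKs, their inhibitors and cycle factors, 15 of 33 were higher and 1 lower.

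**Figure D2:**
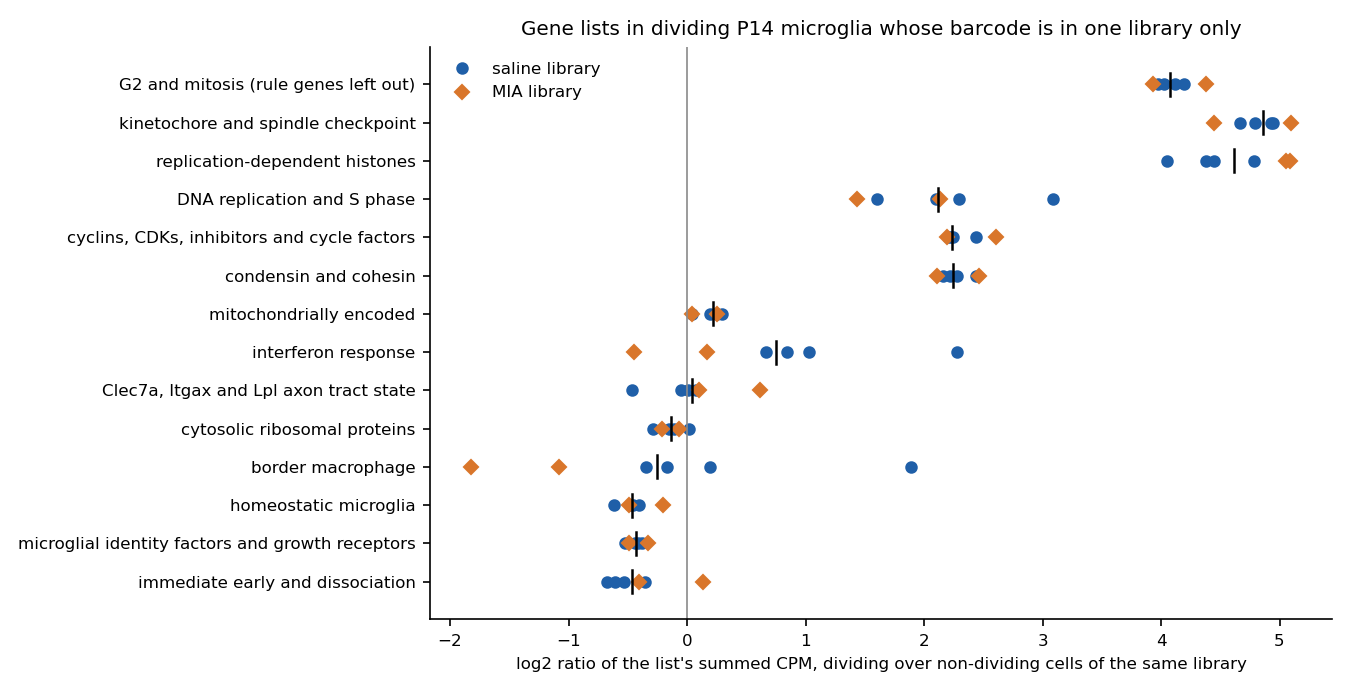
Summed level of gene lists in unshared dividing cells, as the log2 ratio of their CPM to that of unshared non-dividing cells of the same library. Circles are the 4 saline and diamonds the 2 MIA libraries, and the bar is their median; the cycle lists lie to the right of 0 in each library and the homeostatic and identity lists to the left.

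Most dividing cells held more G2 and mitosis than S phase UMIs. A cell was called S-led when it held more UMIs of the S phase list than of the G2 and mitosis list, rule genes left out. Among unshared cells 6 of 98 (6.12%) were S-led, and among all dividing cells 52 of 347 (15.0%). By library, the unshared S-led cells were 1 of 19, 1 of 10, 3 of 22 and 0 of 25 after saline and 1 of 17 and 0 of 5 after MIA. The rule itself selects on G2 and mitosis genes. Unshared non-dividing cells also held more of that list, a median of 4 UMIs against 3 of the S phase list. The S-led share is thus not the share of cells in S phase. For all cells the MIA share (12.3% ± 4.57, SD, n = 2) and the saline share (12.4% ± 5.03, SD, n = 4) differed by -0.06 percentage points (two-sided exact permutation test, p = 1). For unshared cells the difference was -4.28 points (exact p = 0.533). With 15 relabelings the smallest p is 0.0667, so no comparison of MIA and saline shares can pass 0.05.

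Dividing cells kept the microglial profile at somewhat lower levels. Of the 16 homeostatic microglia genes, 13 were lower in 6 of 6 libraries in unshared dividing cells and 0 higher, with a median log2 ratio of -0.34. Against non-dividing cells matched on depth (20 per dividing cell, the nearest in UMIs) 10 of 16 were lower, against 10.6% of all genes, and 10.7% of all genes were higher. Cst3 read 42483, 33954, 31755 and 29789 CPM after saline and 41738 and 50426 CPM after MIA, against 62088, 56270, 46043, 44747, 60705 and 53377 CPM in the non-dividing cells of the same libraries. P2ry12, the purinergic receptor that guides microglial processes, read 2837 to 4121 CPM against 5895 to 6415 CPM. The ranges of P2ry12 did not overlap, and Cst3 was lower within each library although its ranges did overlap.

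Csf1r and C1qa, which chose the microglia, stood at 2577 to 3296 CPM and 7220 to 8850 CPM in the unshared dividing cells. With all 347 cells 16 of 16 homeostatic genes were lower, where 16.1% of all genes were lower and 11.3% higher, and Cst3 fell to 7943 and 10046 CPM in saline 3F and 3M, the libraries with most shared barcodes. Of the 20 microglial identity factors and growth receptors, 19 were measured, 8 were lower and 0 higher in 6 of 6 libraries in the unshared cells. Named lower genes of the unshared cells included Stab1, a scavenger receptor (log2 ratio -1.90), Clec4a3, a C-type lectin (-2.03), Adgrg1, an adhesion receptor (-1.66), and Gabbr1, a GABA-B receptor subunit (-2.03). Tmem52, Lmbrd1, Hbb-bs, Meg3, Pnpla7, Zyg11b, Isyna1, Hbp1, Klhl24, Spg20 and Rab6b stood at -2.66 to -1.64. Over the 6 libraries, the unshared dividing cells held 65 UMIs of Stab1, 25 of Clec4a3, 110 of Adgrg1 and 17 of Gabbr1. The other lower genes named held 8 (Hbb-bs) to 50 (Klhl24) UMIs each. Clec4a3 and Gabbr1 were at 0 in MIA 2.

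Cytosolic ribosomal protein genes show how far the shared barcodes moved a list. In unshared cells 22 of 77 were lower and 6 higher in 6 of 6 libraries, and in all cells 0 were lower and 27 higher. Over all genes 11.0% were lower and 11.3% higher in unshared cells, and 16.1 and 11.3% in all cells. The 13 mitochondrially encoded genes summed to 13360 to 15746 CPM in unshared dividing cells and 11698 to 15175 CPM in non-dividing ones.

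Markers of other cells were few in the unshared dividing cells. The neuron list summed to 0 to 48.2 CPM, the oligodendrocyte lineage list to 0 to 75.8 CPM and the lymphocyte list to 30.0 to 75.0 CPM, with 5 of 10, 4 of 8 and 6 of 7 genes at 0. Blood monocyte and neutrophil genes summed to 0 to 58.8 CPM with 9 of 12 at 0. The border macrophage list, markers of macrophages of the meninges and vessels, read 100 to 1342 CPM against 329 to 379 CPM in non-dividing cells, with 2 of 13 at 0. Its highest value was in saline 3M, where 1 cell of 25 held all 40 UMIs of the chemokine gene Pf4, all 35 of the hyaluronan receptor gene Lyve1 and 57 of the 137 UMIs of the mannose receptor gene Mrc1. In the unshared dividing cells of the other 5 libraries Pf4 and Lyve1 were at 0. Of the early postnatal list named for Clec7a, Itgax and Lpl, 3 of the 10 genes measured were higher and 1 lower in 6 of 6 libraries. Against depth-matched cells it was 1 and 1. Over all genes 11.3% were higher and 11.0% lower, and 10.7 and 10.6% against depth-matched cells. The other lists not named so far had few genes with at least 10 UMIs. Astrocytes had 1, endothelium and pericytes 1 and red blood cells 0. Interferon response had 7, inflammatory chemokines 6 and dissociation 5. Of these, 0 were higher in 6 of 6 libraries, and 1 each of the astrocyte, chemokine and dissociation lists was lower. So few genes say little about these lists.

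The first comparison asks whether MIA changed how many P14 microglia divided. Dividing cells were 0.625% of microglia in saline 1, 0.321% in saline 2, 2.64% in saline 3F, 2.48% in saline 3M, 0.802% in MIA 1 and 0.222% in MIA 2. Saline 3F and 3M stood above the other 4 libraries, MIA 1 lay within the saline range and MIA 2 below it. The means were 1.52% ± 1.21 (SD, n = 4) after saline and 0.512% ± 0.410 (SD, n = 2) after MIA, a difference of -1.004 percentage points (two-sided exact permutation test, p = 0.333, where 0.0667 is the smallest p possible). With saline 3F and 3M summed as 1 replicate the saline mean was 1.17% ± 1.21 (SD, n = 3) and the difference -0.656 (exact p = 0.8). It was -0.629 without saline 3F.

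Without shared barcodes the spread between saline libraries shrank. The shares were 0.342%, 0.272%, 0.505% and 0.552% in saline 1, 2, 3F and 3M (mean 0.418% ± 0.132, SD, n = 4) and 0.317% and 0.103% in MIA 1 and 2 (mean 0.210% ± 0.151, SD, n = 2). MIA 2 was the lowest library and MIA 1 lay within the saline range. The difference was -0.21 percentage points (exact p = 0.2), -0.171 with 3F and 3M summed (exact p = 0.4), -0.314 without MIA 1 and -0.101 without MIA 2. Exact binomial 95% intervals cover counting error only. They ran from 0.206 to 0.533% in saline 1 and from 0.131 to 0.4998% in saline 2. In saline 3F and 3M they ran from 0.317 to 0.763% and from 0.357 to 0.814%. In MIA 1 and 2 they ran from 0.185 to 0.507% and from 0.0336 to 0.241%. The MIA 1 interval overlapped that of every saline library. The MIA 2 interval overlapped those of saline 1 and 2 but not those of saline 3F and 3M.

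The second comparison sets the P14 share beside the embryo. The same rule was applied to cells thinned to 2000 UMIs each, since embryonic cells held more UMIs (cells with fewer than 2000 were left out). Dividing cells made up 27.8 to 33.2% of E13 microglia and 4.92 to 9.32% of E15 microglia in 5 libraries, while E15 saline replicate 1 stood apart at 23.8%. At P14 the share was 0.303%, 0.226%, 1.69% and 1.64% after saline and 0.571% and 0.0845% after MIA. No P14 library overlapped an E13 or E15 one. P14 lay 9.13 percentage points below E15 and 30.0 below E13 (exact permutation within treatment over 350 relabelings, p = 0.00286 for each, the smallest they can give, and 0.00286 after Benjamini-Hochberg adjustment over both).

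Without shared barcodes the P14 shares were 0.0862 to 0.456%, and the differences were -8.78 points from E15 (exact p = 0.00286) and -24.8 points from E13 (exact p = 0.02). E13 MIA replicate 2 then had 4 microglia of sufficient depth and 0 dividing ones. With the barcodes left out of the P14 libraries alone, the difference from E13 was -30.4 points (exact p = 0.00286). Unthinned, E15 libraries held 9.63 to 41.2% and P14 libraries 0.222 to 2.64% dividing cells. Age and library preparation cannot be told apart. P14 saline 3F and 3M counted as 2 libraries in these tests, and a version with them summed was not run.

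**Figure D3:**
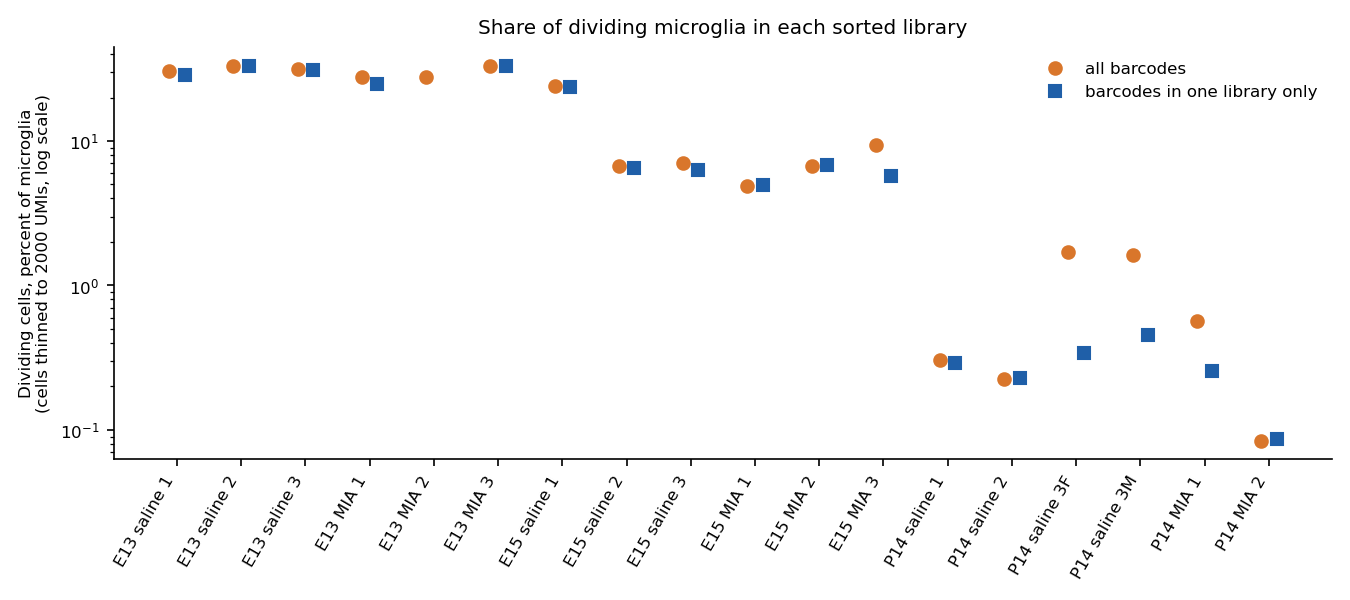
Percent of microglia that were dividing in the 18 sorted libraries, cells thinned to 2000 UMIs, on a log axis, with and without barcodes shared between libraries. The P14 libraries lie below all E13 and E15 ones; E13 MIA 2 has no square because it held 0 dividing cells among 4 unshared microglia.

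The third comparison asks which genes differed between MIA and saline within the dividing P14 cells. UMIs were summed per library and tested with edgeR's quasi-likelihood test, and a gene is said to have passed at a Benjamini-Hochberg adjusted p under 0.05. With all 347 cells 0 of 3627 genes passed (0% called), and 154 had an unadjusted p under 0.05. DESeq2 called 0 and a fit with the replicate block (libraries of the same number) 7. With saline 3F and 3M summed as 1 replicate, 0 of 2881 genes passed. In non-dividing cells 0 of 13187 passed, 430 had an unadjusted p under 0.05, and DESeq2 called 1. The lowest unadjusted p values in all dividing cells belonged to Crlf2 (log2 fold change 1.74, adjusted p = 0.769) and Nudt9 (1.47), then Hist1h2ap, Cdkn2d, Ogfrl1, Lrrfip1, Reep4, Xist, Hist1h2ae and Tssc4, none of which passed.

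In the unshared cells 5 of 3261 genes passed (0.153% called), all higher after MIA, while DESeq2 called 1 and a fit with the replicate block 1. With 1 saline library left out 3 to 6 passed, and 1 of the 4 without saline 3M was lower. Of the 5, 2 were replication-dependent histone genes. Hist1h2ap, a histone H2A gene, read 487, 923, 271 and 157 CPM after saline and 4499 and 1225 CPM after MIA (log2 fold change 2.81, SE 0.38, adjusted p = 6.4e-05). The MIA libraries lay above all saline ones, MIA 1 by the larger margin, and 153 of its 653 UMIs came from 1 cell. Unshared non-dividing cells read 43.5 CPM of Hist1h2ap in MIA 1 and 2.03 to 10.5 CPM in the other 5 libraries, with a UMI in 17.6% and 1.07 to 6.86% of cells, so MIA 1 was the highest library in both classes of cell. Hist1h2ae, also a histone H2A gene, read 411, 1163, 571 and 387 CPM after saline and 2356 and 1775 CPM after MIA (1.78, SE 0.27, adjusted p = 0.00029). The MIA 2 values of both genes come from 5 cells. Of 24 histone genes tested these 2 passed, and the median log2 fold change of the 24 was 0.26 against -0.02 over all genes. Histone genes of a cluster are near-identical, so reads may be split between copies.

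Mt1, which codes for the metal-binding protein metallothionein 1, read 75.6, 60.04, 126 and 103 CPM after saline and 406 and 500 CPM after MIA (2.24, SE 0.31, adjusted p = 6.4e-05). The groups did not overlap, and how many of all genes separate in this way was not counted. Non-dividing cells read 135 to 201 CPM after saline and 214 and 221 CPM after MIA, and shared barcodes raised the saline 3F and 3M values of all dividing cells to 653 and 538 CPM. Of the 59 Mt1 UMIs in MIA 1, 26 came from 1 of 17 cells, and of the 20 in MIA 2, 12 from 1 of 5.

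Gm10076, a predicted gene, was high in MIA 1. It read 23.0 to 67.2 CPM after saline and 462 and 75.0 CPM after MIA (3.06, adjusted p = 8.4e-05), with 458 CPM in the non-dividing cells of MIA 1. Cd63, Ftl1, Cd74, Mrc1 and Selenow came next and did not pass, with adjusted p values from 0.061 to 0.162. No gene of the G2 and mitosis list (44 tested, median log2 fold change 0.13) or of the homeostatic list (16 tested, median -0.06) passed in the unshared cells.

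**Figure D4:**
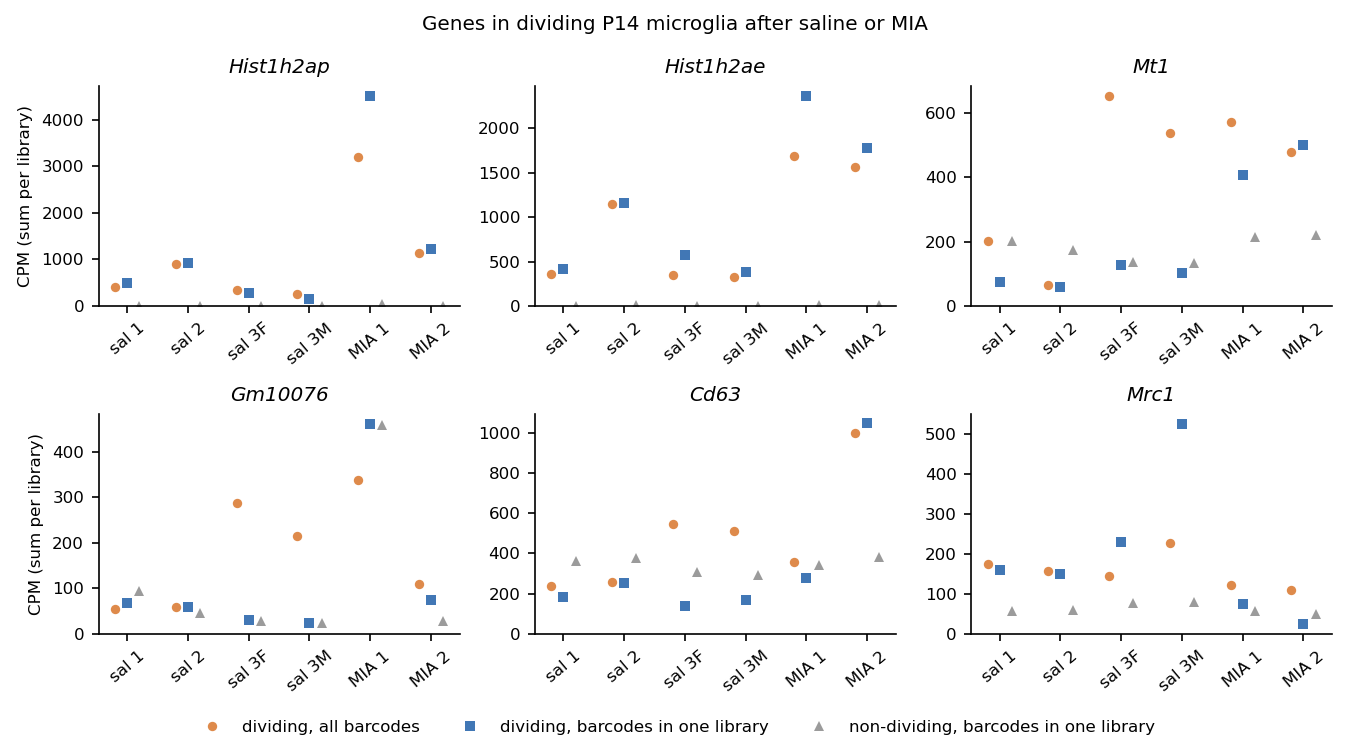
CPM per P14 library of genes of the comparison of MIA and saline, for all dividing cells (circles), unshared dividing cells (squares) and unshared non-dividing cells (triangles). Hist1h2ap, Hist1h2ae and Mt1 are higher in both MIA squares than in the 4 saline squares, Gm10076 stands out in MIA 1, where the triangle is also high, Cd63 is highest in MIA 2, and Mrc1 is highest in saline 3M.

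Whether the MIA response differed between dividing and non-dividing cells was tested as a class by treatment term with library as a factor. With all cells 7 of 12503 genes passed (0.0560%), Ccl4, Cd74 and Cdkn2d with a higher and Gm10076, Xist, Gm10073 and Emb with a lower response in dividing cells. Without shared barcodes 6 of 12127 passed (0.0495%), Ccl4, Mt1, Cd63 and Cd74 higher and Ifi27l2a and Xist lower. Gm10076 and Gm10073 then turned to 0.14 and 0.49 and did not pass. With all cells, scaling by library totals moved the median over all genes by 0.20 and the higher share of the genes that passed from 42.9 to 80%, and 0 genes passed without MIA 1.

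Ccl4, a chemokine gene, had 27 UMIs in the unshared dividing cells of MIA 1, of which 26 were in 1 cell, and 0 or 1 in each other library. Cd74, the MHC class II invariant chain, had 32 UMIs there, 31 of them in 1 cell. Without MIA 1 the 2 differences were -8.18 and -0.36, the first against 0 UMIs in MIA 2 and so no estimate of size. For Mt1 the difference was 1.62 on the log2 scale (SE 0.30, adjusted p = 0.00036). Cd63, a tetraspanin of late endosomes, read 138 to 255 CPM after saline and 276 and 1050 CPM after MIA in the unshared cells (difference 1.21, SE 0.26, adjusted p = 0.0095). Ifi27l2a, an interferon-induced gene, read 134 to 548 CPM after saline and 89.6 and 0 CPM after MIA. The MIA 2 values of Cd63 and Ifi27l2a come from 5 cells with 39999 UMIs in all, and Cd63 in MIA 1 lay close to the highest saline value. Xist moves with the sex of the cells, and the labels give the sex of the P14 libraries as mixed in 4 of 6.

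The fourth comparison asks how dividing microglia at P14 differed from those at E15, both after saline (4 and 3 libraries). Saline 3F and 3M, which the labels name as 1 replicate, counted as 2 libraries here and in the class by age term. No fit with them summed was run for either. With all dividing cells 12 of 8368 genes passed (0.143%), or 3 with the replicate block. Csmd3, Thrsp, Pmp22, Cdkn2a and Pcp4 were higher at P14, and Map1b, Tubb3, Lsp1, Sox11, Hbb-bs, Nfib and Auts2 lower. Without E15 saline 1 the count was 0, and scaling by library totals moved the higher share from 41.7 to 66.7% and the median over all genes by 0.14. Without shared barcodes 1133 of 4404 passed (25.7%), 537 higher at P14 (12.2%) and 596 lower (13.5%). Scaling by library totals in place of TMM raised the median log2 fold change over all genes by 0.27 and split 1394 called genes into 1046 higher and 348 lower. Of the 12, the neuron genes Tubb3 and Sox11 had too few counts to enter the unshared fit, and 10.4 to 57.3% of dividing cells of the E15 saline libraries held at least 2 UMIs of the neuron list, against 0 to 3.25% at P14. Their part in the results was not tested.

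Of 7 inhibitors of cyclin-dependent kinases listed, 5 had enough counts in unshared dividing cells. All 5 were higher at P14, where 12.2% of all genes were higher and 13.5% lower. In unshared non-dividing cells 4 of 7 were higher and 1, Cdkn1a, lower, where 22.8% of all genes were higher and 23.5% lower. The class by age difference passed for 3 of 7, Cdkn1a, Cdkn2a and Cdkn2d, all positive. Cdkn1a codes for p21, an inhibitor of cyclin-dependent kinases and a p53 target. In dividing P14 cells it read 327, 443, 421 and 349 CPM after saline, against 23.0, 44.6 and 49.0 CPM in dividing E15 cells (log2 fold change 3.09, SE 0.26, adjusted p = 8.7e-12). All 4 P14 libraries lay above the 3 E15 ones, and how many of all genes separate so was not counted. Non-dividing cells went the other way, with 10.8 to 17.2 CPM at P14 and 40.4 to 48.9 CPM at E15 (log2 fold change -2.01). The class by age difference was 5.07 (SE 0.25, adjusted p = 6.0e-16). This p was the lowest of the 424 genes that passed among 13002 (3.26%), of which 71.0% were positive, or 81.2% by library totals. For the inhibitors, which are on a cycle list, the term and the change with age in dividing cells are descriptions. Rule-gene UMIs chose the classes at both ages.

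The P14 MIA libraries read 358 and 100 CPM of Cdkn1a. It had a UMI in 13 of 19, 7 of 10, 16 of 22 and 16 of 25 unshared dividing cells of the saline libraries, against 208 of 5442, 174 of 3586, 177 of 4220 and 206 of 4397 non-dividing cells. Dividing cells held a median of 8067 UMIs and non-dividing ones 5289, and the part of depth in these shares was not tested. With all dividing cells, the CPM values were 271 and 438 in saline 1 and 2 and 81.5 and 102 in saline 3F and 3M. E13 libraries read 0 to 33.4 CPM in unshared dividing cells.

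Cdkn2a, which codes for p16 and p19Arf, read 75.6, 45.0, 72.2 and 72.8 CPM in unshared dividing P14 cells after saline and 1.67, 3.13 and 2.51 CPM at E15 (4.66, SE 0.40, adjusted p = 1.7e-11). MIA 1 and 2 read 138 and 0 CPM. It had a UMI in 7 of 19, 5 of 10, 5 of 22 and 13 of 25 cells after saline, and non-dividing P14 cells read 1.17 to 2.42 CPM, also above E15 (2.06). Cdkn2c, Cdkn2d and Cdkn1b, further inhibitors of cyclin-dependent kinases, were also higher at P14 (log2 fold changes 1.41, 0.96 and 0.78, against 0.56, 0.01 and 0.88 in non-dividing cells, of which the last passed), and Cdk4, a kinase of G1, was lower (-1.70, SE 0.26, adjusted p = 4.3e-06). Of the 25 cyclins, CDKs, inhibitors and cycle factors tested, 13 were higher and 1 lower, against 12.2 and 13.5% of all genes.

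Mitotic genes were also at higher CPM in dividing cells at P14 than at E15. Rule-gene UMIs chose the cells at both ages, before and after thinning, and genes of the cycle lists follow them. The counts for these lists are therefore a description. Of the 44 G2 and mitosis genes tested, 35 were higher and 0 lower, with a median log2 fold change of 0.84 against 0.03 over all genes. By library totals these were 41 of 44 with a median of 1.09. The rule asks for the same 4 UMIs at any depth, and unshared dividing cells held a median of 6214 to 14845 UMIs at P14 and 12283 to 16828 at E15 after saline. With cells thinned to 2000 UMIs and chosen by the rule after thinning, 25 genes of the list had enough counts, of which 15 were higher and 0 lower, with a median of 0.83, where 321 of all 721 genes passed (44.5%), 21.2% higher and 23.3% lower. Lbr, the lamin B receptor, changed by 1.60, Ckap2, a spindle protein, by 1.57, and Ndc80, the kinetochore's microtubule anchor, by 1.47. Kinetochore and checkpoint genes were higher for 12 of 22, condensin and cohesin for 7 of 16, and replication-dependent histones for 12 of 27, with 0 lower in each. S phase genes went little either way, with 1 higher and 5 lower of 33, among them Gins2 and Mcm6 of the replicative helicase (-2.23 and -1.12). By library totals the S phase split turned to 5 higher and 1 lower. Over all genes of the unthinned fit 12.2% were higher and 13.5% lower. With all dividing cells none of these lists had a gene that passed, apart from Cdkn2a among cyclins and inhibitors.

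The class by age term put these beside the non-dividing cells. For genes of the cycle lists it is given as a description, since the classes were chosen at both ages by UMIs of the rule genes, which such genes follow. It was positive and past the threshold for 39 of 47 G2 and mitosis genes and 19 of 24 kinetochore and checkpoint genes. Cdk1, the mitotic kinase, read 379 to 428 CPM in unshared dividing cells at P14 and 197 to 289 CPM at E15, against 7.86 to 11.55 CPM and 15.0 to 34.3 CPM in non-dividing ones. Stmn1, the microtubule regulator stathmin, read 1636 to 2200 CPM and 1215 to 1335 CPM in dividing cells, against 44.1 to 54.6 CPM and 184 to 435 CPM. The further genes of lowest p, Tuba1c, Gm42047, Ifi27l2a, Hist1h1b, Gas2l3, Cks1b and Cdca3, differed by 1.92 to 5.05. With all cells 2871 of 13187 passed (21.8%), or 961 without saline 3F and 983 without saline 3M, led by Gpx3, Apoc1, Lgals1, Psat1, F630028O10Rik, AB124611, Ifitm2, Iqgap1, Vill and Itgal.

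Homeostatic genes were higher at P14 than at E15 in both classes of cell. Of 16 homeostatic genes, 13 were higher at P14 than at E15 in unshared dividing cells and 1, Crybb1, was lower (-0.80), with a median log2 fold change of 0.95. Selplg, a ligand of selectins, rose by 2.44, Cst3 by 1.95, Tmem119, a microglia-restricted membrane protein, by 1.58 and P2ry12 by 0.99. In unshared non-dividing cells the counts were 14 higher and 0 lower, with a median of 1.01, where 5988 of all 12930 genes passed (46.3%), 22.8% higher and 23.5% lower. In the class by age test 4 of 16, P2ry12, Crybb1, Selplg and Siglech, differed, by -0.48 to -0.40. Over all genes 3.26% passed that test, and the median was -0.15, or -0.07 by library totals. P2ry12, Selplg and Siglech rose less with age in dividing than in non-dividing cells, and Crybb1 stood at -0.80 in dividing and -0.42 in non-dividing ones. Of 18 identity factors and growth receptors tested in unshared dividing cells, 7 were higher and 2, Tyrobp and Csf2ra, lower. Over all genes there, 12.2% were higher and 13.5% lower. The 7 include Csf1r, which helped choose the cells at both ages.

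Genes of the list named for Clec7a, Itgax and Lpl were lower at P14 for 8 of 10 tested, with a median of -1.84. Over all genes of this fit 12.2% were higher and 13.5% lower. Non-dividing cells are not set beside this list, so the change is not said to be particular to dividing cells. Fabp5, a fatty acid binding protein, fell by 4.94 on the log2 scale, Apoe fell by 2.11, and Ctsb, a lysosomal protease, fell by 1.68, while Cd9 was higher (0.57). Ccl3, an inflammatory chemokine, read 8.40, 0, 0 and 3.83 CPM at P14 and 59.6, 208 and 64.6 CPM at E15 (-5.46, adjusted p = 1.7e-07). Cytosolic ribosomal protein genes were lower for 76 of 77, with a median of -1.47, and in unshared non-dividing cells for 77 of 78 with a median of -1.41, against 23.5% of all genes lower there. By library totals 74 of 77 were lower. Mitochondrially encoded genes were lower for 9 of 12, against 13.5% of all genes. Of the lists for other cell types and for interferon, chemokine and dissociation genes, only Stab1 and Dab2 of 5 border macrophage genes, Ccl3 of 5 chemokine genes and 1 interferon gene in each direction of 3 tested passed.

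The genes with the greatest log2 fold change among those at 50 CPM or more in either age were, upward, Csmd3, Pcp4, Cdkn2a, Pmp22, Gm6277, Lrba, A830008E24Rik, Nav2, Cdkn1a and Sdk1, and downward Ccl3, Fabp5, Vim, AB124611, Gm1673, Apoc1, Aprt, Gpx3, Crip1 and Aldoa. Csmd3, a membrane protein with CUB and sushi domains, read 25.2, 67.5, 78.2 and 65.2 CPM at P14 and at most 0.538 CPM at E15 (8.64, SE 0.62). Pmp22, a myelin-associated membrane protein, read 180 to 311 CPM and 9.89 to 11.47 CPM (4.29, SE 0.27). Pcp4, a calmodulin regulator, read 36.1 to 134 CPM and 1.88 to 2.33 CPM. Aldoa, a glycolytic enzyme, read 30.7 to 113 CPM and 400 to 863 CPM (-3.30, SE 0.31), and Gpx3, a glutathione peroxidase, 6.02 to 22.5 CPM and 114 to 187 CPM. For none of these did the ages overlap. They were picked for large changes among genes that passed, so this adds no support. How many of all genes separate in this way was not counted. Csmd3 and Pmp22 were at similar levels in non-dividing P14 cells, 63.7 to 101 and 262 to 289 CPM, whereas Cdkn1a and Cdkn2a were not.

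**Figure D5:**
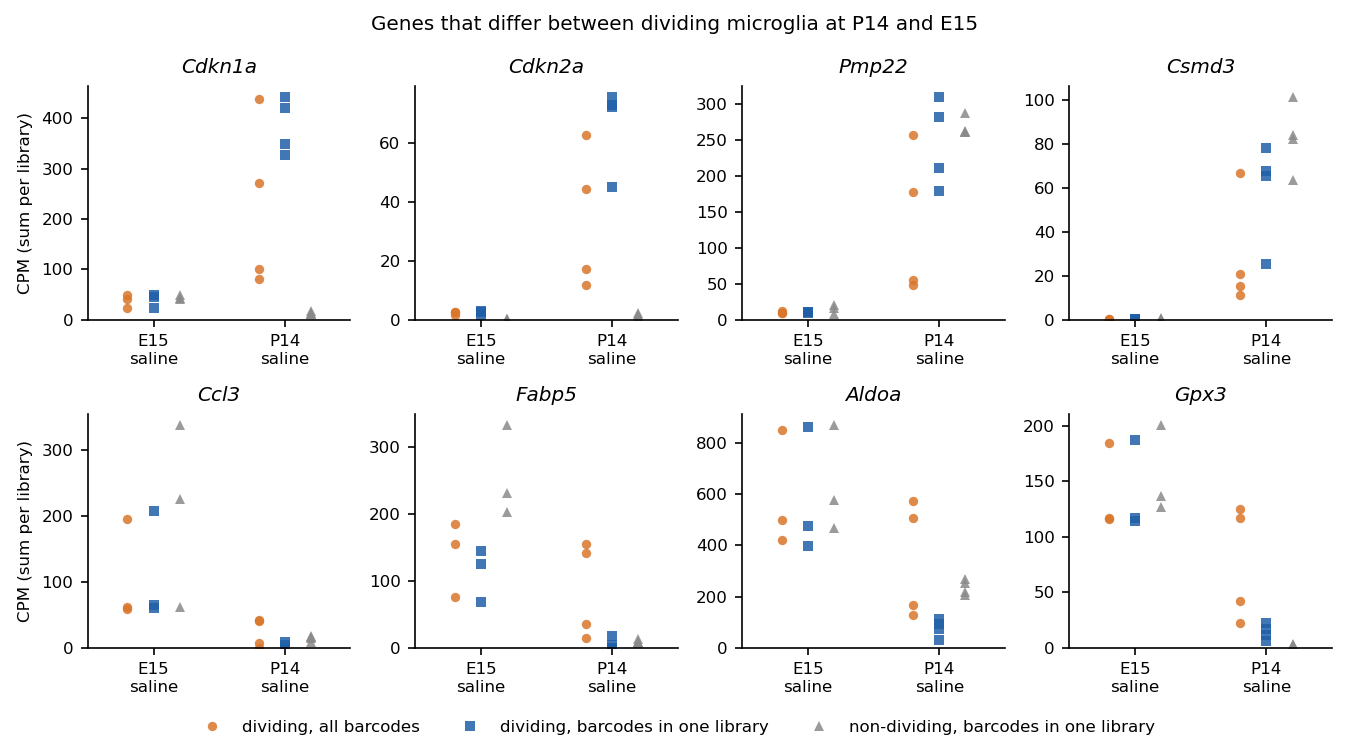
CPM per library of 8 genes in E15 and P14 saline libraries, for all dividing cells (circles), unshared dividing cells (squares) and unshared non-dividing cells (triangles). Cdkn1a and Cdkn2a are high in P14 dividing cells alone, Pmp22 and Csmd3 are high in both P14 classes, and the lower row is higher at E15, with the P14 circles of all cells drawn upward in some libraries.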

How the data were processed

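The deposited files hold whole-number UMI counts per gene and barcode, made by the authors with Cell Ranger; their processing notes name version 3.1.0 and build mm10, while the methods of the study name a later version for sorted microglia, and which of them made these files was not settled. Libraries were made with 10x 3′ chemistry. The 18 sorted libraries were read as sparse matrices and grouped by the labels, which name separate samples but not always separate litters, so p-values measure the spread between these libraries.

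The dividing cells, gene lists and tests were chosen with earlier results of these data known. Barcodes under 500 genes or over 20% of UMIs on mitochondrial genes were left out. Barcodes in the deposited barcode list of another sorted library were called shared, and each result was repeated without them, an alternative added after seeing the data. Doublets were scored with Scrublet in scanpy 1.11.5 at 0.8% per 1000 cells and removed only as an alternative.

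The UMIs of each class of cell in a library were added up and fitted in R 4.3.3 with edgeR 4.0.16 (TMM, filterByExpr, quasi-likelihood test, Benjamini-Hochberg over all genes tested). DESeq2 1.42.0, library totals, no filter on low counts, a replicate block, thinning and leaving out each library were alternatives. The code was tested on simulated data. Shares were compared with two-sided exact permutation tests that enumerated every relabelling of the libraries in Python 3.11.15. Intervals are exact binomial (Clopper-Pearson, scipy 1.17.1) at 95%. Intervals and limits for a count of 0 cover counting error only.

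Named genes outside the rule were the 20 highest and 15 lowest ratios of dividing to non-dividing cells with the same sign in 6 of 6 libraries (at least 100 UMIs, or 50 CPM in non-dividing cells), genes past the threshold or of lowest p, and the 10 greatest changes with age in each direction at 50 CPM or more. Further list members were named after their values were seen. Genes past the threshold that are not named are not reported here. Clec7a was not among the gene symbols used here. Promoters came from RefSeq tables on GRCm38.p6.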

Additional observations from a re-analysis of the deposited data

Results flagged for a closer look

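In the 4 P14 saline libraries, 1 library stood apart from the other 3 for 10 of 90 values screened (11.1%), by a gap to its nearest neighbour that took more of the group's range than Dixon's 95% critical value for 4 samples, and chance alone flags about 1 in 20 such groups. As shares of the range, in unshared dividing cells these were the summed level of condensin and cohesin genes (0.988), of interferon response genes (0.861) and of border macrophage genes (0.854), and the levels of Cd74 (0.949), Cdkn2a (0.889) and Apoc1 (0.830). In all dividing cells they were the inflammatory chemokine list (0.929), the blood monocyte and neutrophil list (0.875), Hist1h2ae (0.956) and Xist (0.839).

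The MIA response differed between dividing and non-dividing P14 cells (class by treatment term, log2 scale) with all cells for Ccl4 (3.64), Cd74 (2.82), Cdkn2d (1.48), Gm10076 (-2.30), Xist (-1.73), Gm10073 (-2.99) and Emb (-12.64). Emb was at 0 in the dividing cells of both MIA libraries, so its value is no estimate of size. Gm10076 and Gm10073 turned to 0.14 and 0.49 without shared barcodes. Without shared barcodes the response differed for Ccl4 (5.98), Cd74 (2.63), Mt1 (1.62), Cd63 (1.21), Ifi27l2a (-2.12) and Xist (-1.13).

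The difference between P14 and E15 was itself different in dividing and non-dividing cells, with all cells, for Gpx3 (4.91), Apoc1 (4.44), Lgals1 (4.33), Psat1 (3.08), F630028O10Rik (5.06), AB124611 (4.20), Ifitm2 (3.19), Iqgap1 (4.71), Vill (5.05) and Itgal (4.96). Without shared barcodes the lowest p values belonged to Cdkn1a (5.07), Stmn1 (2.93), Tuba1c (2.55), Gm42047 (3.43), Ifi27l2a (3.13), Hist1h1b (4.36), Gas2l3 (3.06), Cks1b (1.92), Cdk1 (1.76) and Cdca3 (5.05).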

How the results depend on the processing

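Without shared barcodes MIA against saline in dividing cells went from 0 to 5 called genes, P14 against E15 from 12 to 1133, and the class by age term from 2871 to 424. For MIA with all cells, no filter on low counts called 14 genes and leaving out a library 0 to 1. Without shared barcodes DESeq2 called 1, library totals 4, no filter 15 and leaving out a library 3 to 9. In non-dividing cells DESeq2 called 1 gene. The class by MIA term gave 0 to 23 genes with a library left out, and without shared barcodes 3 to 8, or 4 with no filter. P14 against E15 gave 69 genes with DESeq2, 6 with library totals, 187 with no filter, 1 with cells thinned to 2000 UMIs and 0 to 73 with a library left out (0 without E15 saline 1, 73 without E15 saline 3, 22 without P14 saline 2, 32 without P14 saline 3F). Without shared barcodes these were 1542, 1394, 1346, 321 and 813 to 1278 (911, 932 and 1278 without E15 saline 1, 2 and 3, and 1065, 1173, 994 and 813 without P14 saline 1, 2, 3F and 3M). The class by age term gave 961 to 3626 genes with a library left out (961 without saline 3F, 983 without saline 3M), and without shared barcodes 415 with library totals, 384 with no filter and 260 to 489 (399, 489 and 426 without E15 saline 1, 2 and 3, and 308, 318, 322 and 260 without P14 saline 1, 2, 3F and 3M). The cause of these changes was not tested.

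The share of S-led cells, MIA minus saline, turned to 1.22 points at a threshold of 3 rule-gene UMIs, to 0.379 with doublets removed, and ran from -3.29 to 3.17 with a library left out. The share of dividing cells, MIA minus saline, ran from -1.40 to -0.629 points with a library left out (exact p 0.3 to 1), and from -0.314 to -0.101 without shared barcodes (exact p 0.2 to 0.8). In the class by MIA term with a library left out, Ccl4 ran from -11.03 to 4.25 and Cd74 from -0.10 to 3.53, both lowest without MIA 1. Without MIA 1 and shared barcodes Ccl4 turned to -8.18 and Cd74 to -0.36. Without shared barcodes Gm10076 turned to 0.14, Gm10073 to 0.49, Vill to -5.96 and Itgal to -3.38 (Ccl4 at 0 in MIA 2, and Vill and Itgal at 0 in the unshared P14 saline cells, so their values are no estimates of size), and with all cells Ftl1 turned to -0.48. Of the other values of named genes under an alternative, 740 kept direction and side of the threshold, 101 lost it and 18 gained it.

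The labels do not say that a number marks a shared litter or batch. Between saline and MIA libraries numbered 1 and 2, deviations from the group means correlated at -0.04 and 0.04 in all dividing cells, 0.02 and 0.02 in unshared ones and 0.48 and -0.11 in non-dividing cells, so the numbers were not taken as pairs. With only 2 MIA libraries, the correlations of a saline library with them are mirror images, so this does not settle the pairing. Shared barcodes did follow the numbers here: 17 of the 17 shared dividing cells of saline 1 were listed in MIA 1 and 2 of 2 of saline 2 in MIA 2. With the replicate block, MIA against saline called 7 genes with all cells and 1 without shared barcodes, and P14 against E15 called 3 and 1126.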
